A study of Capsella rubella with 6 samples.

Results

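The 200 most covered biallelic genes of *Capsella rubella* endosperm were examined, out of 12641 genes with at least 1 polymorphic site. A gene was called biallelic when its maternal share, the maternal reads divided by all reads that show a parental base, lay above 55% and below 75% in each of 4 libraries. There were 2151 such genes, and the 200 with the highest number of allelic reads in their poorest library were kept. The genes were thus selected on their maternal share and read number in these libraries, and both are given below as description.

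Endosperm feeds the embryo of a flowering plant and forms when 1 sperm nucleus joins the central cell, so that it carries 2 maternal genomes for each paternal one. A gene transcribed equally from every copy has a maternal share of 66.7%. Imprinted genes depart from that dosage according to the parent that transmitted the allele, whereas a difference in regulatory sequence between accessions follows the accession whichever parent carried it. Reciprocal crosses separate these 2 patterns because each accession serves once as mother and once as father.

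The 4 libraries of endosperm RNA compared came from both directions of 1 cross, with 2 replicates named Cr A x Cr B and 2 replicates named Cr B x Cr A, where Cr A is the accession Cr48.21 and Cr B is Cr75.2. In every cross the flowers of the mother were emasculated and pollinated by hand 2 days later, seeds were collected 6 days after pollination, and the endosperm dissected from 300 to 500 seeds was pooled for each replicate. The labels name no transgene and no other treatment. The labels do not say whether the replicates are from separate plants. P-values measure the spread between these pools, which may be technical. The edgeR fits moderate the spread of a gene towards that of all genes, so an SE is not the gene's own spread alone. Cross names were read here as female x male, which the labels do not state. With the other reading Cr A and Cr B change places in every sentence on the accession of an allele, and maternal shares stay as they are.

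The libraries held 7549075 and 10913804 allelic reads on genes in replicates 1 and 2 of the Cr A x Cr B direction, against 8828316 and 10864896 in the Cr B x Cr A libraries. A read that spans several polymorphic sites was counted at each of them, so the numbers are base observations rather than molecules, and errors from counting alone are too small. Bases of neither parent made up 0.0770% to 0.0975% of the calls in the 200 genes, against 0.0867% to 0.101% in the other genes. The intervals carry no gene names, so a gene is given by its scaffold, start, end and strand as listed by the authors, with its rank by lowest read number. Neither the roles of the genes nor markers of endosperm, seed coat or embryo could be looked up, and the purity of the dissection was not tested.

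The 200 genes took up a large part of the data. They held 1369308 and 2115184 reads in Cr A x Cr B, which is 18.1% and 19.4% of all allelic reads on genes, and 1506508 and 2024606 reads in Cr B x Cr A, which is 17.1% and 18.6%. Their lowest library had between 2649 and 24508 reads with a median of 4451.5, against a median of 136 over the 8597 genes tested for allelic bias. The window held 43% of the 200 deepest genes, against 17.0% of all genes with a site. All genes had a median of 35 reads in their poorest library. Shares from few reads scatter by counting alone and leave the window more easily, so nothing is read from this gap. Of the 200 genes with the most reads in their poorest library at any share, 86 belonged to the set, 111 had a library at 75% or more and 31 had one at 55% or less. Of those 200 deepest genes, 5 stood at 85% or more in all 4 libraries and 2 at 50% or less.

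The maternal share of the 200 genes had a median of 68.2% and 67.9% in the libraries of Cr A x Cr B, and 67.5% and 70.4% in those of Cr B x Cr A. As means of the library medians these were 68.0% ± 0.216 in Cr A x Cr B, against 69.0% ± 2.01 in Cr B x Cr A (SD, n = 2 each). The medians of the 2 crosses overlapped, since replicate 1 of Cr B x Cr A was the lowest and replicate 2 the highest of the 4. Over all genes tested for allelic bias the medians were 69.6% and 67.9% in the Cr A x Cr B libraries, against 69.9% and 72.3% in the Cr B x Cr A libraries. Within the set, shares ran between 59.4% and 74.97% in replicate 1 of Cr A x Cr B, with 55.4% and 74.9% as the limits of replicate 2. The limits were 55.1% and 74.7% for replicate 1 of Cr B x Cr A, and 56.4% and 74.98% for its replicate 2. The genes filled the window unevenly. In some library 31 genes lay within 1 point of the upper bound, and 3 lay within 1 point of the lower bound.

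**Figure D1:**
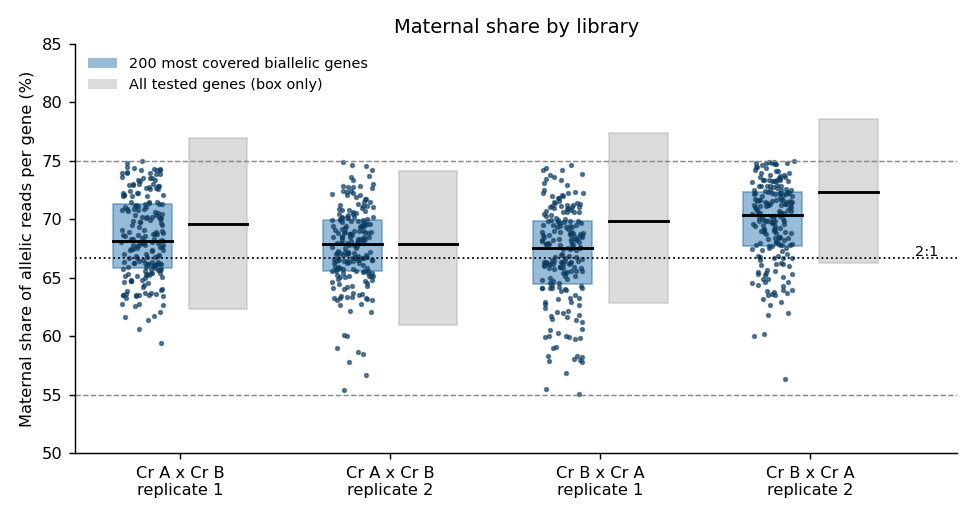
Maternal share of allelic reads per gene (%) in each of the 4 libraries; points are the 200 genes, blue boxes their quartiles with the median as a black line, grey boxes the quartiles of all genes tested for allelic bias, dashed lines the bounds of 55% and 75%, and the dotted line the 2 to 1 dosage. The medians of the 200 genes lie between 67.5% and 70.4%, and the box of Cr B x Cr A replicate 2 is the highest.

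At the bounds the cut was a matter of decimals. The genes nearest the upper bound on the inside reached 74.98% (scaffold 4, 8817713 to 8820807, plus strand) and 74.97% (scaffold 1, 9168864 to 9182351, minus strand). The nearest outside it reached 75.02% (scaffold 1, 10804414 to 10806121, minus strand). At the lower bound the nearest gene inside had 55.1% (scaffold 6, 14193597 to 14196014, plus strand) and the nearest outside 54.9% (scaffold 6, 3734656 to 3738146, plus strand). At the end of the ranking, rank 200 had 2649 reads in its poorest library (scaffold 2, 2072515 to 2077316, plus strand), and the gene left out next had 2623 (scaffold 3, 3432169 to 3434080, plus strand).

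The gene with the highest read number in its poorest library lay on scaffold 2, 3094497 to 3097188, minus strand, and carried 17 polymorphic sites, 12 of them in listed exons. It had 28745 and 43348 allelic reads in the Cr A x Cr B libraries, against 24508 and 41609 in the Cr B x Cr A libraries. Its maternal share was 66.2% and 65.8% in the Cr A x Cr B libraries, against 64.2% and 74.2% in the Cr B x Cr A libraries. The other libraries stood within 3 points of each other, and Cr B x Cr A replicate 2 stood apart above them, so that the libraries of the crosses overlapped.

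Rank 2 (scaffold 3, 8362184 to 8365196, plus strand, 17 sites) had shares of 67.8% and 62.1% in the Cr A x Cr B libraries, against 71.5% and 74.7% in the Cr B x Cr A libraries. Here the Cr B x Cr A libraries were the 2 highest. Rank 3 (scaffold 3, 1643263 to 1644503, plus strand, 6 sites) had shares of 63.5% and 67.2% in the Cr A x Cr B libraries, against 66.8% and 71.3% in the Cr B x Cr A libraries, and the libraries overlapped. Rank 4 (scaffold 5, 7539683 to 7542617, minus strand, 12 sites) ran the other way, with 74.0% and 68.9% in the Cr A x Cr B libraries, against 62.8% and 66.2% in the Cr B x Cr A libraries. Its interval overlaps one on the opposite strand, and the kit used does not mark strand, so reads of the overlapping genes cannot be told apart. The same limit holds for rank 7, rank 9 and 11 further genes of the set, 14 in all. Only intervals with a polymorphic site were searched for overlaps, so 14 is a minimum.

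Rank 5 (scaffold 4, 13812871 to 13814308, minus strand, 4 sites) had the tightest shares of the first 5 genes, with 66.8% and 68.9% in the Cr A x Cr B libraries, against 71.3% and 70.9% in the Cr B x Cr A libraries. Rank 6 (scaffold 2, 9681198 to 9682733, plus strand, 8 sites) had 73.9% and 67.8% in the Cr A x Cr B libraries, against 67.9% and 71.3% in the Cr B x Cr A libraries. Rank 7 (scaffold 8, 8140700 to 8144045, plus strand, 7 sites) had 65.3% and 71.7% in the Cr A x Cr B libraries, against 57.9% and 67.7% in the Cr B x Cr A libraries. In rank 7 each cross held 1 low and 1 high library, and the low one was replicate 1 in both. Rank 8 (scaffold 4, 7724079 to 7724855, minus strand, 3 sites) stood at 70.2% and 70.8% in the Cr A x Cr B libraries, against 70.4% and 65.3% in the Cr B x Cr A libraries.

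Rank 9 (scaffold 2, 6486540 to 6488312, minus strand, 11 sites) had 69.1% and 66.8% in the Cr A x Cr B libraries, against 64.8% and 67.3% in the Cr B x Cr A libraries. Rank 10 (scaffold 8, 9819233 to 9820807, plus strand, 8 sites) had 65.7% and 69.5% in the Cr A x Cr B libraries, against 66.9% and 67.8% in the Cr B x Cr A libraries. Of these 10 genes, those ranked 2, 4 and 5 had crosses that did not overlap, and the direction differed among them.

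**Figure D2:**
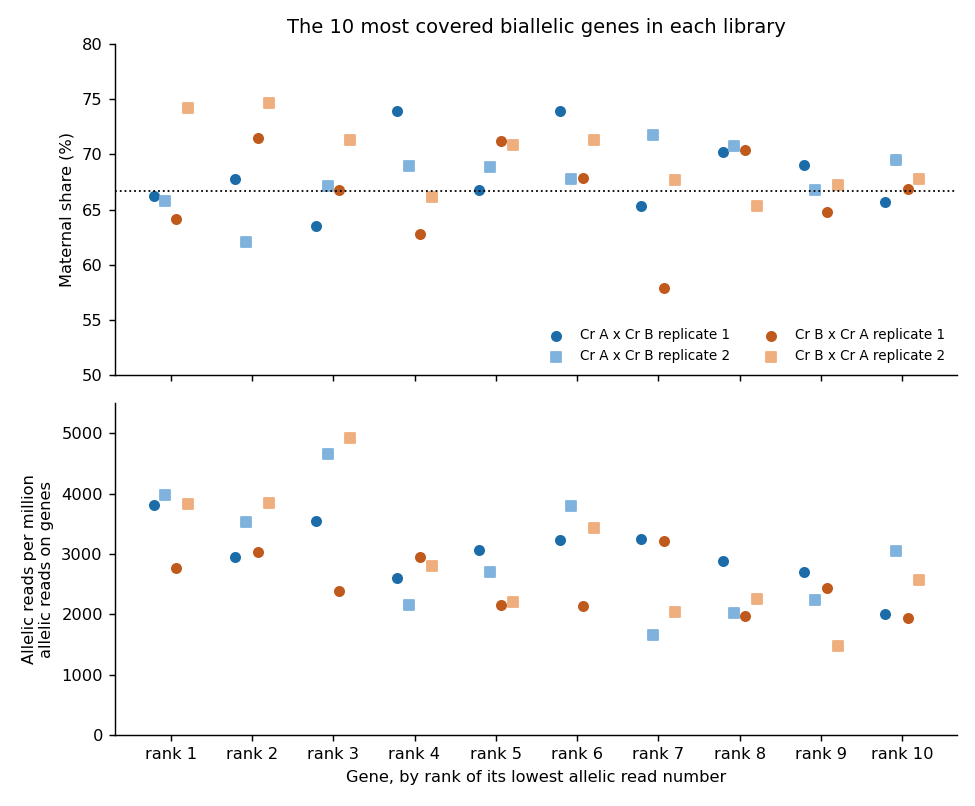
Maternal share (%, top) and allelic reads per 1000000 allelic reads on genes of a library (RPM, bottom) of the 10 genes with the highest read number in their poorest library, 1 point per library; the dotted line is the 2 to 1 dosage. Points of a cross lie up to 10 points apart in share (rank 1, Cr B x Cr A), and rank 3 has its highest levels in the replicate 2 libraries of both crosses.

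The first 10 genes by summed reads were not the first 10 by depth of a site. A gene with many sites sums more base observations, and none of the first 10 by summed reads was among the first 10 by mean reads per site. Of the first 50 by each measure, 21 were shared. The deepest gene per site had 1 site (scaffold 6, 15029520 to 15030893, plus strand, rank 21). At that site it had 19200 and 33172 reads in the Cr A x Cr B libraries, against 10259 and 28123 in the Cr B x Cr A libraries. Its shares were 72.3% and 69.7% in the Cr A x Cr B libraries, against 70.1% and 73.2% in the Cr B x Cr A libraries, so this single site still moved by up to 3.52 points between libraries. The shallowest gene per site had 89 sites and a mean of 40.5 reads per site and library (scaffold 7, 10983977 to 10998489, minus strand, rank 199).

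The set was rich in polymorphic sites. Its genes had a median of 11 sites, against 3 for genes tested for allelic bias and 2 for all genes, and 3.95 sites per kb against 0.964 for all genes. Only 13 of the 200 genes (6.5%) rested on 1 site, against 37.4% of all genes. The intervals had a median length of 2758.5 bp, against 2589 bp for tested genes and 2420 bp for all genes. Set against all genes, length thus differed far less than site density. Since the ranking sums reads over sites, a high site number helps a gene into the set. Of the 2655 sites in the set, 1863 (70.2%) lay in listed exons, against 73.6% over all genes, and the exon sites carried 98.7% of the reads of the set, against 98.6% over all genes.

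The genes were spread over the genome. Scaffolds 1 to 8 held 37, 25, 32, 18, 18, 24, 22 and 23 of them, and scaffold 14 held 1. Over scaffolds 1 to 8 the percent of the set ran between 9% (scaffolds 4 and 5) and 18.5% (scaffold 1). Of the tested genes, scaffold 4 held 11.4%, scaffold 5 held 10.5% and scaffold 1 held 15.8%. The gene on scaffold 14 (71433 to 73264, plus strand, rank 17) was 1 of 4 listed there. Its shares were 68.0% and 65.3% in the Cr A x Cr B libraries, against 60.6% and 73.4% in the Cr B x Cr A libraries, and the gap of 12.8 points between the replicates of Cr B x Cr A was the widest of any gene of the set. There were 9 pairs of the set next to each other among listed genes. One such pair on scaffold 2 (7828696 to 7831750 and 7831845 to 7834823) had mean shares of 66.9% each. Another on scaffold 1 (16659013 to 16661786 and 16663223 to 16664864) had 70.3% and 66.1%.

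Averaged over the 4 libraries, shares in the set ran between 63.6% and 72.5% with a median of 68.3%. The mean lay above the 2 to 1 dosage in 171 genes, and 42 genes were above it in all 4 libraries. One gene was below it in all 4 (scaffold 6, 7562190 to 7564588, plus strand, rank 58). Its 1 site gave 65.8% and 65.6% in the Cr A x Cr B libraries, against 58.1% and 64.9% in the Cr B x Cr A libraries. In 71 genes every library stood within 5 points of the 2 to 1 dosage. The gene with the highest mean (scaffold 2, 1407198 to 1410231, minus strand, rank 91) had 74.3% and 72.9% in the Cr A x Cr B libraries, against 72.2% and 70.6% in the Cr B x Cr A libraries.

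The parental deviation from 2 to 1 was fitted with edgeR's quasi-likelihood test across all tested genes, with Benjamini-Hochberg adjustment at 0.05. None of the 200 genes was called, where 7.46% of tested genes were, 5.82% as more maternal and 1.64% as less maternal. An unadjusted p below 0.05 was found for 12 genes (6%), against 19.9% of tested genes. DESeq2 called 1, the gene of rank 91 just described, where it called 775 of all genes tested. The fitted log2 deviation in the set ran between -0.19 and 0.40 with a median of 0.12, against a median of 0.19 over all tested genes, and it was above 0 in 173 genes. Nothing is read from these counts, since the window itself bounds the deviation. The authors' deposited table gives a p-value per gene, cross and replicate, and the ratio it tests against is not given in the sources used here. It was below 0.05 in all 4 libraries for 66 genes of the set (33%), against 18.5% of genes with 4 such values. It was below 0.05 in at least 1 library for all 200 genes, against 77.3%. A p-value from counts falls with read number at the same deviation. The set had a median of 4451.5 reads in the poorest library, against 136 over the genes tested for allelic bias. Nothing is therefore read from the higher percentages in the set.

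The gap between the replicates had a median of 1.86 points in Cr A x Cr B and 3.31 points in Cr B x Cr A, against a median counting error of the gap of 0.840 and 0.828 points (SE). It exceeded the 95% binomial range in 111 and 151 of the genes, numbers that are inflated where a read is counted at several sites. In the 13 genes with 1 site, where a read is counted once, the gap exceeded that range in 5 genes in Cr A x Cr B, against 11 in Cr B x Cr A. Replicate 1 was the higher library of Cr A x Cr B in 117 genes, whereas it was the higher library of Cr B x Cr A in 36. Cr B x Cr A replicate 2 had the highest share of the 4 libraries in 98 genes, and Cr B x Cr A replicate 1 had the lowest in 74. Replicate 2 of Cr B x Cr A also had the highest median over all tested genes, 72.3%. Without it the median of the set in Cr B x Cr A was 67.5%, that of replicate 1.

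Single genes ranged widely in how steady they were. The SD of the share over the 4 libraries had a median of 3.41 points and ran between 0.519 and 9.11 points. The steadiest gene (scaffold 3, 1344853 to 1346885, plus strand, rank 20, 6 sites) had 67.8% and 68.5% in the Cr A x Cr B libraries, against 68.7% and 69.1% in the Cr B x Cr A libraries. A gene with a single site next in that order (scaffold 3, 10429337 to 10429687, minus strand, rank 69) had 67.7% and 68.4% in the Cr A x Cr B libraries, against 67.1% and 67.9% in the Cr B x Cr A libraries. In both genes all 4 libraries fell within 1.28 points.

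The difference in share between the crosses, Cr A x Cr B minus Cr B x Cr A, ran between -11.2 and 15.7 points, with a median of -0.906 and quartiles of -3.80 and 3.83. Both Cr A x Cr B libraries were higher in 55 genes (27.5%, against 22.5% of genes with a share in all 4 libraries). Both Cr B x Cr A libraries were higher in 72 genes (36%, against 35.1%), and the crosses overlapped in 73. These shares are near the background, and the window limits the difference to less than 20 points, so no tendency of the set is read from them.

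**Figure D3:**
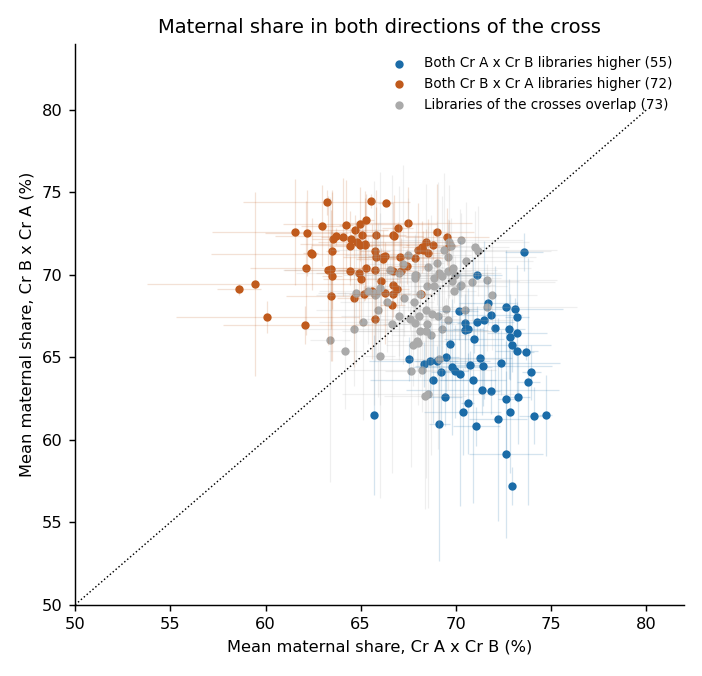
Mean maternal share (%) of each gene of the set, for Cr A x Cr B on the horizontal axis and Cr B x Cr A on the vertical axis, with bars of 1 SD over 2 libraries and the dotted line of equal shares. The 55 blue genes have both Cr A x Cr B libraries higher, the 72 orange genes both Cr B x Cr A libraries higher, and the 73 grey genes overlap.

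A difference in share between the directions of the cross is the same term of the allelic fit as a difference between the accessions of the allele. The log2 ratio of the Cr A to the Cr B allele, the estimate of that term, ran between -0.38 and 0.51 in the set with a median of -0.03, against -0.08 over all tested genes. Calls were made for 3 genes (1.5%), all with the Cr A allele higher, where 14.4% of tested genes were called, 5.09% towards Cr A and 9.33% towards Cr B. DESeq2 called 12 genes towards Cr A and 8 towards Cr B, where it called 1474 of all genes tested in either direction. An unadjusted p below 0.05 was found for 32 genes (16%), against 27.9% of tested genes. The window bounds this ratio as well, and nothing is read from the lower share of calls.

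The gene with the largest Cr A value lay on scaffold 4, 12417518 to 12418983, minus strand (rank 180, 5 sites). Its maternal share was 73.0% and 72.8% in the Cr A x Cr B libraries, against 58.0% and 56.4% in the Cr B x Cr A libraries, a log2 ratio of 0.51 (SE 0.10). The replicates of a cross lay within 2 points and the crosses 15.7 points apart. The next (scaffold 6, 6613367 to 6615899, minus strand, rank 129, 9 sites) had 74.5% and 74.9% in the Cr A x Cr B libraries, against 59.8% and 63.2% in the Cr B x Cr A libraries, a log2 ratio of 0.44 (SE 0.11). It is one of the genes that overlap an interval on the opposite strand. The third by size (scaffold 7, 16765571 to 16767809, minus strand, rank 183) had 74.0% and 71.3% in the Cr A x Cr B libraries, against 55.5% and 62.7% in the Cr B x Cr A libraries, and was not called (log2 ratio 0.44, SE 0.12). The other called gene (scaffold 3, 2919289 to 2920082, minus strand, rank 23, 4 sites) had 73.5% and 74.6% in the Cr A x Cr B libraries, against 62.7% and 60.2% in the Cr B x Cr A libraries, a log2 ratio of 0.42 (SE 0.10). Each of the 3 calls was lost when single libraries were left out, with the adjusted p between 0.0571 and 0.254 in the fits that lost it. The log2 ratios in those fits stayed between 0.48 and 0.51, 0.39 and 0.50, and 0.38 and 0.44 for the genes in the order called.

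Towards Cr B the largest value was at scaffold 5, 7850815 to 7853960, plus strand (rank 166, 19 sites). Its shares were 66.3% and 60.1% in the Cr A x Cr B libraries, against 73.9% and 74.9% in the Cr B x Cr A libraries (log2 ratio -0.38, SE 0.12, not called). Both Cr B x Cr A libraries lay near the upper bound of the window. The gene of rank 48 (scaffold 7, 8222199 to 8223750, plus strand, 13 sites) had 64.6% and 58.5% in the Cr A x Cr B libraries, against 70.3% and 74.9% in the Cr B x Cr A libraries. The short gene of rank 74 (scaffold 3, 8583630 to 8584058, minus strand, 2 sites) had 59.4% and 57.8% in the Cr A x Cr B libraries, against 69.3% and 68.9% in the Cr B x Cr A libraries. Its replicates nearly coincided and its crosses were 10.5 points apart. With a spread moderated across genes, edgeR did not call it (log2 ratio -0.33, SE 0.10). DESeq2 called this gene and that of rank 166.

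Single sites were looked at next. The window was set on gene sums and not on single sites, but the sites make up those sums. The deepest site held a median of 27.9% of a gene's reads, and in the 13 genes with 1 site it is the whole gene. The window thus limits the shares of sites as well, and they are given as description. Sites with at least 100 reads in every library numbered 1260 and covered all 200 genes, and 1239 of them lay in listed exons. Their mean share over the libraries had a median of 68.2% and ran between 49.4% and 82.4%. The 21 sites outside listed exons had a median of 66.7%. The binomial error of a site in 1 library had a median of 1.79 points and reached 4.94 points. Of these sites, 613 of 1260 (48.7%) lay inside the window in all 4 libraries, and 19 of the 183 genes with 2 or more such sites had every one of them inside. The SD between the sites of a gene had a median of 2.17 points and ran up to 11.2 points. None of the 1260 sites was at 85% or more, or at 50% or less, in all 4 libraries.

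In the gene of rank 1 the 12 deep sites had mean shares between 62.4% and 71.7%. At 492 bases from the interval start the shares were 55.7% and 61.6% in the Cr A x Cr B libraries, against 51.5% and 80.9% in the Cr B x Cr A libraries. At 345 bases from the start they were 69.7% and 66.7% in the Cr A x Cr B libraries, against 65.6% and 72.3% in the Cr B x Cr A libraries. Cr B x Cr A replicate 2 had 80.9%, 80.7% and 78.6% at 3 of the sites, and between 69.1% and 74.7% at the others. In the gene with the third largest Cr A value, the 2 Cr A x Cr B libraries were above the 2 Cr B x Cr A libraries at each of its 11 deep sites. In the gene with the largest Cr B value, the libraries of the crosses crossed over at several sites.

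**Figure D4:**
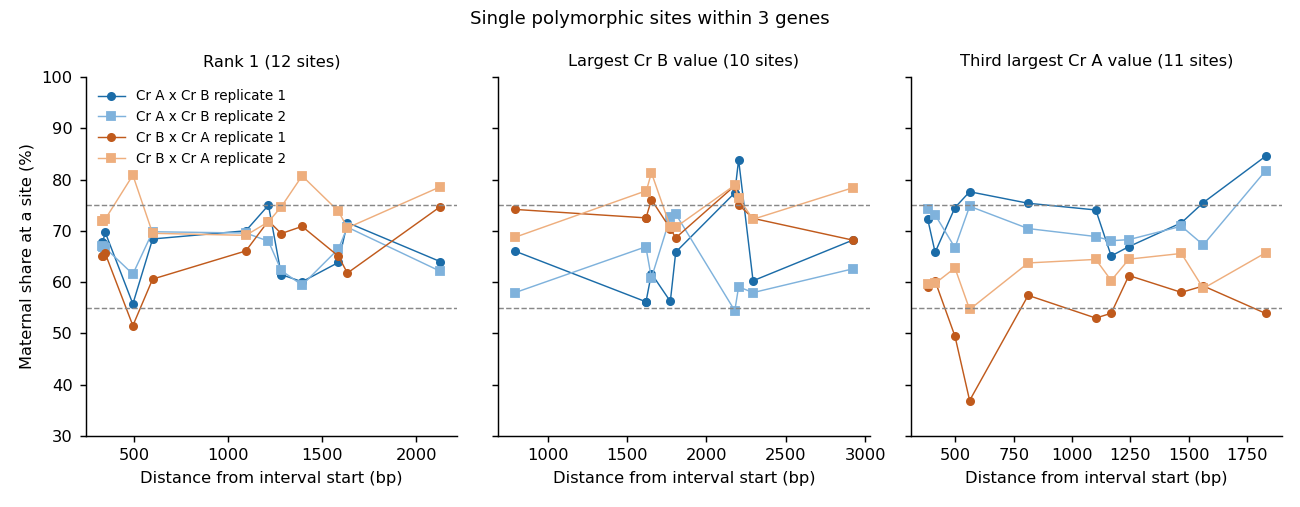
Maternal share (%) at single sites with at least 100 reads in every library, by distance from the interval start (bp), for the gene of rank 1, the gene with the largest Cr B value (rank 166) and the gene with the third largest Cr A value (rank 183); 1 line per library and dashed lines at 55% and 75%. Shares at single sites leave the window in each of these genes, and at 561 bp in the gene of rank 183 the share is 36.9% in Cr B x Cr A replicate 1.

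One gene left the window when 2 sites with opposite alleles were taken out. The gene of rank 199 (scaffold 7, 10983977 to 10998489, minus strand, 89 sites, overlapping an interval on the opposite strand) had shares of 65.1% and 59.0% in the Cr A x Cr B libraries, against 66.2% and 67.8% in the Cr B x Cr A libraries. At its site 1035 bases from the interval start, all 533 and 989 reads of the Cr A x Cr B libraries, and likewise all 275 and 940 reads of the Cr B x Cr A libraries, carried the Cr A base. A count of 0 Cr B reads there puts the limit of the Cr B share at 0.563% and 0.303% in the Cr A x Cr B libraries, against 1.09% and 0.319% in the Cr B x Cr A libraries, from 3 reads of the total. At its site 1099 bases from the start, all 264 reads of Cr A x Cr B replicate 1 and 653 of 654 reads of its replicate 2 carried the Cr B base. So did all reads of Cr B x Cr A replicate 1 and 947 of 952 reads of its replicate 2. These sites were the only ones among the 1260 with at least 95% of 1 accession in all 4 libraries. Without them the gene had 64.3% and 58.1% in the Cr A x Cr B libraries, against 70.4% and 79.3% in the Cr B x Cr A libraries, which puts it outside the window. Taking out sites was tried in this gene only. Another gene of the set (scaffold 1, 11221677 to 11226166, plus strand) had a site short of the 95% bound, 1840 bases from its start. Maternal shares there were 96.2% and 96.4% in the Cr A x Cr B libraries, against 11.2% and 16.8% in the Cr B x Cr A libraries.

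The widest spread of sites within a gene was at scaffold 6, 14439026 to 14443722, plus strand (rank 165). At 655 bases from the start its shares were 76.0% and 65.3% in the Cr A x Cr B libraries, against 65.8% and 73.0% in the Cr B x Cr A libraries. At 4234 bases they were 37.4% and 31.1% in the Cr A x Cr B libraries, against 58.8% and 70.2% in the Cr B x Cr A libraries. The far site was below the near one in all 4 libraries, though replicate 2 of Cr B x Cr A had both within 3 points, and its near site at 754 bases had 65.4%. The highest mean share of a single site, 82.4%, was on scaffold 1 (11184937 to 11188022, plus strand), with 81.0% and 89.5% in the Cr A x Cr B libraries, against 96.7% and 62.6% in the Cr B x Cr A libraries. There the replicates of Cr B x Cr A were farther apart than the crosses.

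The gene with the most sites, 123, lay on scaffold 5, 7855639 to 7886427, plus strand (rank 179), next to the gene with the largest Cr B value. It had 65.7% and 65.4% in the Cr A x Cr B libraries, against 74.2% and 74.8% in the Cr B x Cr A libraries. Both neighbours thus had the higher share in Cr B x Cr A, in every library of it.

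Total level, the sum of both alleles, was not used by the share window. The read rule ranked genes by their poorest library, and so it disfavours genes with a low level in any 1 library. None of the 200 genes differed between the crosses past an adjusted p of 0.05 (edgeR's quasi-likelihood test, Benjamini-Hochberg adjusted), where 0% of the 9040 genes tested for total level did. At an unadjusted p below 0.05 there were 3 of the 200 genes (1.5%), against 1.36% of the genes tested, and DESeq2 called 0 of the 200 with 3 at an unadjusted p below 0.05. The log2 ratio of Cr A x Cr B over Cr B x Cr A ran between -0.81 and 1.04 with a median of 0.04, against a median of -0.04 over the genes tested, and its median SE was 0.40. The median SE over all genes tested was 0.63. Counts were also simulated for 7910 genes, without those of lowest summed reads, from their means, the library sizes and a fixed dispersion of 0.05. On these counts the test recovered 29% of 2-fold and 96% of 4-fold changes. The dispersion was not estimated from these libraries. No deviation shared by same-numbered libraries was simulated, so recovery in these libraries, or at the depth of the set, is not known.

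The gene with the highest ratio (scaffold 4, 980061 to 981788, plus strand, rank 133, 2 sites) had 1147 and 963 RPM (allelic reads per 1000000 allelic reads on genes of a library) in the Cr A x Cr B libraries, against 404 and 642 in the Cr B x Cr A libraries (log2 ratio 1.04, SE 0.40, adjusted p = 0.999934, edgeR). Both Cr A x Cr B libraries were higher. The next 2 genes in that order had an unadjusted p below 0.05 as well. The gene of rank 31 (scaffold 7, 2050758 to 2051276, minus strand) had 2293 and 2199 RPM in the Cr A x Cr B libraries, against 988 and 1337 in the Cr B x Cr A libraries. The gene of rank 35 (scaffold 6, 5076481 to 5079003, minus strand) had 1836 and 1862 in the Cr A x Cr B libraries, against 922 and 1050 in the Cr B x Cr A libraries. Its maternal share stayed between 66.2% and 68.0% in all 4 libraries, while that of rank 31 was 74.0% and 73.4% in the Cr A x Cr B libraries, against 65.0% and 65.6% in the Cr B x Cr A libraries.

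At the other end, the gene of rank 69 had 729 and 869 RPM in the Cr A x Cr B libraries, against 1623 and 1142 in the Cr B x Cr A libraries (log2 ratio -0.81, SE 0.42), and it is the gene named above for its steady share. The ratio was -0.41 without Cr B x Cr A replicate 1 and -1.11 without replicate 2. The gene of rank 60 (scaffold 1, 5343994 to 5347366, minus strand, 16 sites) had 796 and 658 RPM in the Cr A x Cr B libraries, against 1549 and 690 in the Cr B x Cr A libraries. Its log2 ratio of -0.66 (SE 0.55) rested on Cr B x Cr A replicate 1 and became 0.19 without it. Counted over the set, both Cr A x Cr B libraries had the higher level in 22 genes (11%, against 11.2% of genes tested). Both Cr B x Cr A libraries had it in 18 genes (9%, against 12.9%), and 160 genes overlapped.

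The levels of the replicate 2 libraries were the most alike. Across the 200 genes, log2 RPM in Cr A x Cr B replicate 2 and Cr B x Cr A replicate 2 had a Pearson correlation of 0.937, and in the replicate 1 libraries of both directions one of 0.796. The replicates within Cr A x Cr B had 0.803 and those within Cr B x Cr A 0.637. These correlations are across genes, which are not independent replicates, and the libraries share each gene's sites. The median absolute log2 difference in the set was 0.19 between the crosses and 0.38 between the replicate numbers. A difference over 2-fold was found between the crosses in 1 gene (0.5%, against 12.2% of genes with reads in all libraries). Between the replicate numbers it was found in 15 genes (7.5%, against 29.8%), with 9 higher and 6 lower in the replicate 2 libraries. The read rule disfavours large level differences, and the set has more reads than other genes, so nothing is read from these lower percentages. The direction between the replicate numbers was the same in both crosses in 131 genes (65.5%, against 66.9%). The labels do not say what a replicate number stands for.

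**Figure D5:**
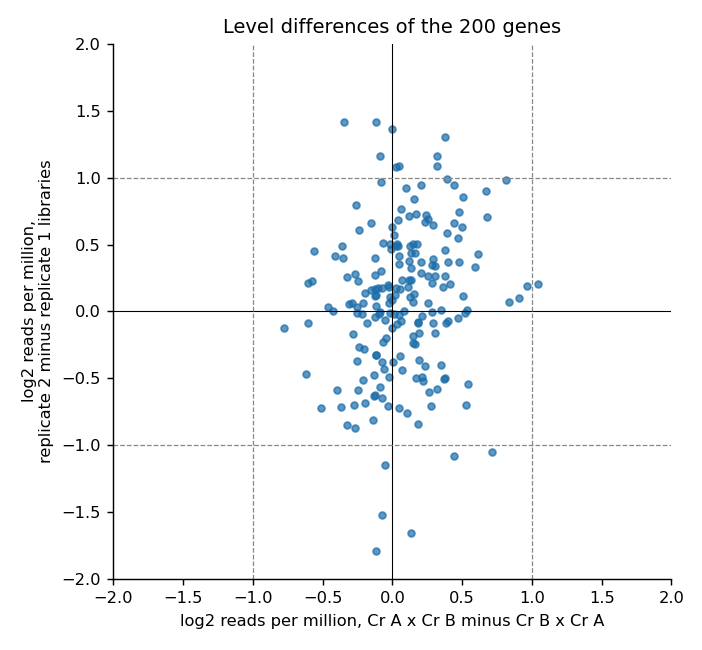
Difference in log2 RPM of each of the 200 genes between the crosses (horizontal, Cr A x Cr B minus Cr B x Cr A, mean of 2 libraries each) and between the replicate numbers (vertical, replicate 2 minus replicate 1, mean over the crosses); dashed lines mark 2-fold. The points spread farther up and down than sideways, with 15 genes past 2-fold between the replicate numbers and 1 between the crosses.

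The gene that was lowest in the replicate 2 libraries relative to replicate 1 (scaffold 7, 3095598 to 3097639, minus strand, rank 176) had 860 and 328 RPM in replicate 1 and replicate 2 of the Cr A x Cr B direction, against 1237 and 269 RPM in those of Cr B x Cr A. Its maternal share was 68.7% and 70.5% in the Cr A x Cr B libraries, against 68.0% and 72.5% in the Cr B x Cr A libraries, so the share stayed within 5 points. The gene that was highest (scaffold 1, 903630 to 905482, minus strand, rank 25) had 1276 and 3446 RPM in the Cr A x Cr B libraries, against 1646 and 4334 in the Cr B x Cr A libraries. Its share was 66.8% and 63.1% in the Cr A x Cr B libraries, against 71.4% and 72.2% in the Cr B x Cr A libraries. Across the 200 genes the replicate difference in level and the replicate difference in share had a Pearson correlation of 0.085.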

How the data were processed

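Per the labels' protocols, libraries of dissected endosperm were made with the TruSeq RNA kit v2, and Trimmomatic, TopHat and Bowtie 1.0 are listed without a role, per the submitters' processing notes. The genome build and the allele calling are not given in the sources used here. Per the file headers, the deposited tables hold maternal and paternal read counts at each polymorphic site, gene and exon intervals and the authors' p-value per gene. Their columns were tied to the labelled libraries by equal counts, at 99.99% of sites or more, against 5.24% or less for any other library. The deposited counts per base and library served for this and for bases of neither parent. The leaf DNA samples have no counts of their own here and were not analysed.

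Counts were summed per gene interval. None of the intervals could be matched to a gene name, so the gene lists and markers planned for the set were not applied. Total level was fitted with edgeR 4.0.16 in R 4.3.3 (quasi-likelihood test, TMM, filterByExpr), as Cr A x Cr B over Cr B x Cr A. The allelic fit had 8 columns, a term for each library, the parent and the accession, an offset of 2 maternal to 1 paternal, and at least 20 reads in each cross, which left 2 residual degrees of freedom. The SE is the log2 estimate over the square root of F. It rests on a spread moderated across genes, not on that of the gene alone. For the accession term it was 0.099 in the gene of rank 69 and 0.112 in that of rank 2. Their shares had an SD over the 4 libraries of 0.530 and 5.41 points. P-values were adjusted by Benjamini-Hochberg over all genes of a fit, with a threshold of 0.05. RPM is allelic reads per 1000000 allelic reads on genes of a library. Both fits were tested on simulated counts of 7910 genes. DESeq2 1.42.0, other filters, site choices, windows and leaving out each library were the alternatives.

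The set and the tests were chosen with earlier results of these data known. Named genes are, within the set, the first 10 and last 5 by lowest read number with the next 5 outside, the 5 most extreme in each direction of total level and of accession ratio, and the 5 with most sites. Genes at the extremes of steadiness, parental share, replicate difference and single sites were added after their values were seen.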

Additional observations from a re-analysis of the deposited data

Results flagged for a closer look

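In 3 of the 200 genes the maternal share differed between the directions of the cross by the accession term of the allelic fit (edgeR quasi-likelihood test, Benjamini-Hochberg adjusted over all tested genes), where 14.4% of tested genes did. The gene at scaffold 4, 12417518 to 12418983, had a log2 Cr A over Cr B value of 0.51 (adjusted p = 0.0253), with a maternal share higher in both Cr A x Cr B libraries than in both Cr B x Cr A libraries. The gene at scaffold 6, 6613367 to 6615899, had 0.44 (adjusted p = 0.0394), and the gene at scaffold 3, 2919289 to 2920082, had 0.42 (adjusted p = 0.0397), both with the same order of libraries. The window that chose the set bounds these ratios, so they are a description. In this design a difference between the accessions of an allele and one between the directions of the cross cannot be told apart.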

How the results depend on the processing

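Over all genes, total level gave 0 calls, and 20 with DESeq2, 5 without a filter on low counts and 5 with the replicate number as a block, and 0 in the set each time. The labels give both crosses replicates 1 and 2 but do not say that a number marks a shared batch, so the block is given only here. Same-numbered libraries deviated together in level (r = 0.567 across the 200 genes and 0.576 across 9040). For the accession ratio, the 3 calls towards Cr A became 12 with DESeq2, 6 with the median ratio as null, 6 with the site of most reads only and 0 to 2 with a library left out (2 without Cr B x Cr A replicate 1, and 0 without any of the other libraries). The 0 calls towards Cr B became 8 with DESeq2 and 5 with the site of most reads. Accession calls over all genes in either direction were 1474 with DESeq2, 1138 with the median ratio as null and 881 with the site of most reads. Over all genes, 1240 accession calls became 505 to 953 with a library left out (619 and 505 with replicate 1 or 2 of Cr A x Cr B left out, 803 with replicate 2 of Cr B x Cr A left out). Parental calls in the set went to 1 with DESeq2 in place of 0, and over all genes to 775 in place of 641.

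The window held 693 genes at 0.60 to 0.72 and 4186 at 0.50 to 0.80, in place of 2151. The median share in Cr A x Cr B was 68.3% at the site of most reads and 67.7% with sites weighted equally, against 68.0%. Of the 200 genes, 98 stayed in the set with the site of most reads only, 194 with exon sites, 80 with the narrower and 114 with the wider window. The total ratio at scaffold 1, 5343994 to 5347366, turned to 0.19 without Cr B x Cr A replicate 1 and was -1.17 without its replicate 2, and the accession ratio at scaffold 8, 8354850 to 8357282, turned to 0.066 at the site of most reads (adjusted p = 0.810, against -0.34 over all sites). The cause of these changes was not tested. Over the alternatives, values of the named genes changed sign in 1 case by accession and in 1 case by total level. By accession, 71 cases kept direction and side of the threshold, 8 passed it and 10 lost it. All 10 losses came from the 3 called genes, while a gene not called in the main fit counted as kept when it stayed uncalled. By total level the other 99 cases kept both, but no named gene was called there, so no support is read from them.

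With 2 libraries a cross and reads counted at each site, precision is set by the spread between libraries, moderated across genes in the edgeR fits.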
